A study of Mus musculus with 8 samples.

Results

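The protein kinases that phosphorylate SR proteins were followed at the mRNA level: Clk1, Clk2, Clk3 and Clk4 of the CLK family, Srpk1 and Srpk2 of the SRPK family, Dyrk1a, and Prpf4b. They were chosen by name, as kinases known to act on splicing factors rich in arginine and serine, and all 8 were found among the 55291 gene symbols of the count tables. SR proteins bind exons and recruit the spliceosome, and their activity and place in the cell depend on how many of their serines carry phosphate. SRPK1 and SRPK2 phosphorylate them mainly in the cytoplasm, which allows their import into the nucleus, whereas the CLK kinases act in the nucleus and release them from nuclear speckles. Clk1 and Clk4 transcripts are known for detained introns, which are kept in polyadenylated RNA that stays in the nucleus until the introns are removed.

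The study asked how loss of DHX35, an RNA helicase, or of its partner GPATCH1, a G-patch protein, affects the fidelity of splicing. Mouse embryonic stem cells carried a degron tag on one or the other protein (genotypes DHX35-dTAG and GPATCH1-dTAG), which lets the small molecule dTAG-13 direct the tagged protein to degradation. Each line was given DMSO, the solvent control, or 200 nM dTAG-13 for 4 h, and total RNA from 2 samples of each of the 4 groups was mixed with RNA of human DLD-1 cells as a spike-in, depleted of ribosomal RNA and sequenced with a stranded kit. The lines were grown from picked single colonies, and the labels do not say which clone gave a sample. The labels name the cells E14, while the growth protocol mentions R1 cells. The groups were DHX35-dTAG cells with DMSO, DHX35-dTAG cells with dTAG-13, GPATCH1-dTAG cells with DMSO and GPATCH1-dTAG cells with dTAG-13, so that every sample carried a tag. An untagged line was not analysed here, and a change caused by dTAG-13 itself cannot be told apart from one caused by loss of the protein. Where a line difference is given, the tag, the clone and the culture cannot be told apart either.

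Total counts per library ranged from 12014203 to 14994173. Levels are given as CPM, counts scaled to a common library total, after TMM scaling, which adjusts each total so that most genes have similar values between libraries. The program, annotation and strand setting of the authors' counting are not given in the sources used here. At this depth the 8 kinases had between 296 counts (Clk4) and 4253 counts (Srpk1) in a library, and the counting error of a single value was at most 5.81%. In bulk RNA, fewer cells that express a gene and less RNA per cell cannot be told apart. The labels do not say whether the samples of a group were separate cultures. The p-values given set each difference against the spread between these samples, estimated over all libraries of a fit.

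The levels of markers were read for the cell type that the labels give. All 6 pluripotency markers were abundant in every library, with a summed level of 3008 to 3297 CPM, and Pou5f1, with the highest mean, was at 702 to 1087 CPM. The 5 fibroblast markers summed to 2.56 to 5.76 CPM, with Thy1 the most abundant at 1.33 to 3.62 CPM and Postn at 0 in all 8 libraries. Primitive endoderm markers summed to 2.57 to 4.39 CPM (4 genes, Gata4 with the highest mean), neural progenitor markers to 7.46 to 11.2 CPM (3 genes, Sox1 the most abundant) and mesoderm markers to 18.9 to 25.7 CPM (3 genes, Eomes the most abundant).

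The mRNAs of the tagged proteins separated the genotypes. Dhx35 was at 72.3 and 80.4 CPM with DMSO and 84.8 and 79.5 CPM with dTAG-13 in DHX35-dTAG cells, against 58.1, 58.4, 59.3 and 64.9 CPM in the GPATCH1-dTAG libraries. Gpatch1 was at 25.6, 23.4, 23.2 and 23.7 CPM in the DHX35-dTAG libraries and at 7.31, 6.90, 7.06 and 7.20 CPM in the GPATCH1-dTAG libraries. Both genes thus stood lower in all 4 GPATCH1-dTAG libraries, with or without dTAG-13, as for 6% of all genes tested. Between lines, Gpatch1 differed by -1.75 ± 0.08 (log2, SE; edgeR quasi-likelihood test, adjusted p = 6.5e-06) and Dhx35 by -0.40 ± 0.06 (adjusted p = 0.0209). These mRNA levels do not measure the depletion itself, since dTAG-13 acts on the protein.

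One library stood apart from the rest. Replicate 1 of the DHX35-dTAG cells with DMSO had 0.272% of its counts on mitochondrial mRNAs, against 0.758% to 1.13% in the other 7, and its log2 CPM correlated with those of the others at 0.981 on average, where every other library had 0.992 or 0.993. It was the lowest of the 8 libraries for 5 of the 8 kinases and the highest for none of them. Over all 16371 genes tested it was the lowest for 29.5% and the highest for 30.3%. Replicate 2 of the GPATCH1-dTAG cells with dTAG-13 was the highest for 5 of the 8 kinases, and for 12.5% of all genes tested. Gm23935 and CT010467.1, which had more counts than any other gene, took 1.27% to 20.9% of a library, and their share was above 10% in both libraries of DHX35-dTAG cells with dTAG-13 and in replicate 2 of the GPATCH1-dTAG cells with DMSO. Whether either measure bears on the values of the kinases was tested only by fits with 1 library left out or without these 2 genes.

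Between genes, levels were compared as CPM per kilobase of exon, taking the union of all annotated exons of a gene. Srpk1, the main cytoplasmic SR protein kinase of many cell types, was the highest at 21.1 ± 1.08 CPM per kilobase (SD, n = 8 libraries), followed by Dyrk1a, a dual-specificity kinase whose gene dose matters in Down syndrome, at 19.8 ± 1.22. Prpf4b, the kinase that acts on U4/U6.U5 tri-snRNP proteins during spliceosome activation, had 13.4 ± 1.19, Clk1 11.7 ± 1.44 and Clk2 9.39 ± 1.09 CPM per kilobase. Clk3 at 5.51 ± 0.301, Clk4 at 5.20 ± 0.532 and Srpk2 at 4.81 ± 0.362 CPM per kilobase were the lowest. The neighbours Srpk1 and Dyrk1a, Prpf4b and Clk1, Clk1 and Clk2, Clk3 and Clk4, and Clk4 and Srpk2 overlapped within 1 SD. Scaled to the longest annotated transcript in place of the union, the first and the second place were the same, with 52.8 and 28.4 CPM per kilobase, Prpf4b went from the third to the fifth place (14.4 CPM per kilobase, below 19.6 for Clk1 and 15.7 for Clk2), and Clk4 took the last place with 8.50 CPM per kilobase. The order therefore rested partly on the length used.

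Clk1, the founding member of the family and a dual-specificity kinase of SR proteins, was at 78.2 and 97.3 CPM in DHX35-dTAG cells with DMSO, 78.5 and 93.7 CPM in DHX35-dTAG cells with dTAG-13, 103 and 108 CPM in GPATCH1-dTAG cells with DMSO, and 95.6 and 108 CPM in GPATCH1-dTAG cells with dTAG-13. In both lines the treated and control libraries overlapped, and the 2 replicates of DHX35-dTAG cells lay further apart than the means of the treatments. Clk4, its closest relative in the family, was at 29.6 and 28.6 CPM with DMSO and 25.3 and 26.6 CPM with dTAG-13 in DHX35-dTAG cells, and at 33.1 and 32.4 CPM with DMSO and 32.0 and 33.3 CPM with dTAG-13 in GPATCH1-dTAG cells. The treated libraries of DHX35-dTAG cells were thus below both controls (14.1% of all genes tested), those of GPATCH1-dTAG cells overlapped their controls, and all 4 GPATCH1-dTAG libraries were above all 4 of the other line, as for 5.63% of all genes tested. The ratio of Clk1 to Clk4 CPM in a library lay between 2.65 and 3.52, and both ends came from DHX35-dTAG cells.

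Clk2, a nuclear SR protein kinase that also has a role in hepatic metabolism, was at 40.9 and 48.7 CPM with DMSO and 46.1 and 43.6 CPM with dTAG-13 in DHX35-dTAG cells. In GPATCH1-dTAG cells it was at 54.9 and 53.0 CPM with DMSO and 55.2 and 55.7 CPM with dTAG-13. The lines did not overlap, with GPATCH1-dTAG cells above (5.63% of all genes), and within DHX35-dTAG cells the treated values lay between the controls. Clk3, the fourth CLK kinase, was at 44.1 and 45.8 CPM with DMSO and 46.4 and 41.9 CPM with dTAG-13 in DHX35-dTAG cells, and at 48.7, 48.8, 48.7 and 48.3 CPM in the GPATCH1-dTAG libraries. Its 4 values in GPATCH1-dTAG cells were nearly equal and all above the other line, as for 5.63% of all genes. Summed, the 4 CLK mRNAs made up 193, 220, 196 and 206 CPM in the DHX35-dTAG libraries and 239, 242, 232 and 246 CPM in the GPATCH1-dTAG libraries.

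**Figure D1:**
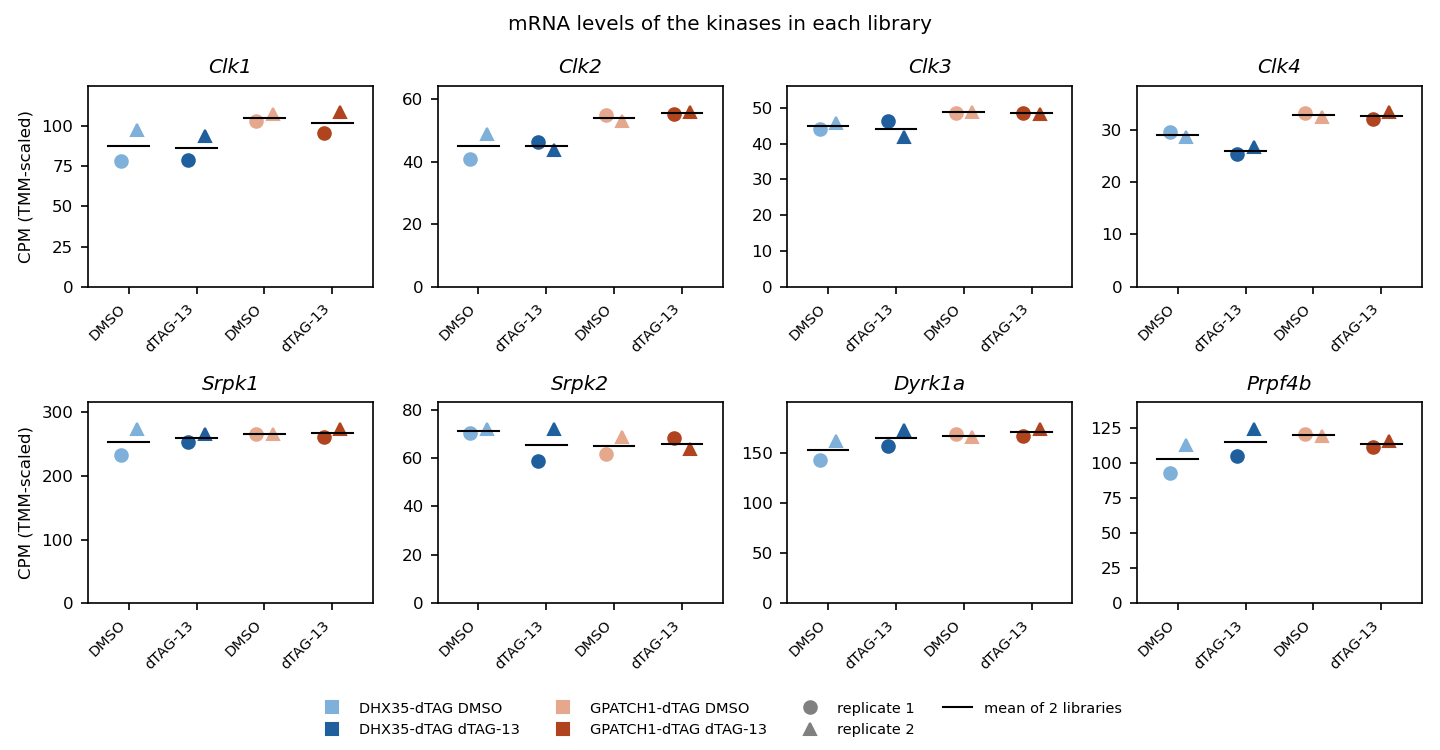
TMM-scaled CPM (vertical axes, starting at 0) of the 8 kinase mRNAs in the 4 groups, with 1 point per library, circles for replicate 1 and triangles for replicate 2, and a line at the mean of the 2 libraries. The points of Clk2, Clk3 and Clk4 are all higher in GPATCH1-dTAG cells than in DHX35-dTAG cells, as for 5.63% of all genes tested, and those of the other 5 kinases overlap between the lines.

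Srpk1 was at 233 and 273 CPM with DMSO and 253 and 266 CPM with dTAG-13 in DHX35-dTAG cells, and at 267, 266, 261 and 274 CPM in the GPATCH1-dTAG libraries. DHX35-dTAG DMSO replicate 1 was the lowest, and the groups overlapped. Srpk2, the second SRPK kinase and abundant in neurons, was at 70.4 and 72.1 CPM with DMSO and 58.7 and 72.0 CPM with dTAG-13 in DHX35-dTAG cells, and at 61.5 and 68.6 CPM with DMSO and 68.2 and 63.5 CPM with dTAG-13 in GPATCH1-dTAG cells. Only 1 treated library of DHX35-dTAG cells was below both controls, and the lines overlapped. The sum of both SRPK mRNAs was 304 to 345 CPM in the DHX35-dTAG libraries and 328 to 338 CPM in the GPATCH1-dTAG libraries.

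Dyrk1a was at 143 and 162 CPM with DMSO and 156 and 172 CPM with dTAG-13 in DHX35-dTAG cells, and at 169, 165, 166 and 174 CPM in the GPATCH1-dTAG libraries. Prpf4b was at 93.2 and 113 CPM with DMSO and 105 and 125 CPM with dTAG-13 in DHX35-dTAG cells, and at 121 and 119 CPM with DMSO and 111 and 116 CPM with dTAG-13 in GPATCH1-dTAG cells. For both genes the 2 treated libraries of DHX35-dTAG cells overlapped the controls, of which replicate 1 was the lowest library of all. In GPATCH1-dTAG cells, both treated Prpf4b values were below both controls, as for 20.3% of all genes tested.

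Whether loss of either protein over 4 h altered the kinase mRNAs was tested within each line. After loss of DHX35, the log2 fold changes of the 8 kinases lay between -0.16 (Clk4) and 0.16 (Prpf4b), with 4 above 0 and a median of -0.01, as over all genes tested (-0.01). None of the 8 passed edgeR's quasi-likelihood test (adjusted p at least 0.715), which called 0 of 16371 genes (0%). No kinase had an unadjusted p under 0.05 there, as 882 of all genes had, and DESeq2 called none of the kinases and 1 gene (0.00611%). Clk4 was the kinase with the lowest p, at -0.16 ± 0.10 (SE), with a 95% confidence interval of -0.38 to 0.05. It was the only kinase whose treated libraries were both below the controls, as were those of 14.1% of all genes tested, while no kinase had both above, as 14.6% of genes did. The intervals of the 8 kinases spanned 0.767-fold to 1.34-fold from the lowest to the highest limit, and those of single kinases were narrower, such as 0.850-fold to 1.13-fold for Clk3.

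These values depended on the control library that stood apart. The median over the 8 kinases after loss of DHX35, -0.01 with all libraries, was -0.10 without replicate 1 of the DHX35-dTAG cells with DMSO, where all genes had a median of 0.00. With replicate 2 left out, so that replicate 1 was the only control, Prpf4b was called at 0.31 ± 0.09 (edgeR, adjusted p = 0.0133) and Dyrk1a at 0.21 ± 0.08 (adjusted p = 0.0463), among 4949 genes in all (28.8% of those tested). With replicate 1 left out instead, Prpf4b was at 0.03 ± 0.09 and Dyrk1a at 0.02 ± 0.08, and 2 genes were called, none of them a kinase. In each of these fits the lone control is assumed to vary like the libraries of the other groups. Among the pluripotency markers, the fit without replicate 2 gave 0.44 ± 0.07 for Klf4, 0.32 ± 0.07 for Nanog and 0.21 ± 0.08 for Sox2. It gave -0.44 ± 0.07 for Pou5f1. Without replicate 1, Klf4 was at 0.07 ± 0.07. Whether these markers bear on the kinase values was not tested. Over all alternatives run, the adjusted p ranged from 0.0133 to 1.00 for Prpf4b and from 0.0463 to 1.00 for Dyrk1a.

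After loss of GPATCH1, the log2 fold changes of the kinases lay between -0.08 (Prpf4b) and 0.04 (Clk2), again with 4 above 0. edgeR called none of them (adjusted p = 1.00 for all 8) and 0 of the 16371 genes (0%), no kinase and 486 genes had an unadjusted p under 0.05, and DESeq2 called 0 genes (0%). Prpf4b, with the lowest p, was at -0.08 ± 0.12 (SE), with a 95% confidence interval of -0.34 to 0.18. Treated libraries were both above the controls for 1 kinase, Clk2 (background 21.5%), and both below for 1, Prpf4b (background 20.3%). The intervals of the 8 kinases spanned 0.790-fold to 1.21-fold.

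The responses of the 2 lines were compared directly as the difference of their log2 fold changes, GPATCH1 minus DHX35 depletion. This difference uses the same DMSO libraries as both treatment tests, so the 3 results are not independent. It lay between -0.24 ± 0.16 (SE) for Prpf4b and 0.16 ± 0.13 for Clk4. None of the 8 kinases was called by edgeR, which called 0 of 16371 genes (0%), with 0 kinases and 640 genes at an unadjusted p under 0.05, and DESeq2 called 9 genes (0.055%) and no kinase. Without DHX35-dTAG DMSO replicate 2, the difference for Prpf4b was -0.39 ± 0.11 (edgeR, adjusted p = 0.0197, range over the alternatives 0.0197 to 1.00), among 3592 genes called (20.9%), and without replicate 1 it was -0.11 ± 0.11. Taking both lines together in a model with line and treatment, the effect of dTAG-13 lay between -0.08 ± 0.07 for Clk4 and 0.07 ± 0.06 for Dyrk1a. edgeR called 0 kinases and 0 genes (0%) there, with 0 kinases and 587 genes at an unadjusted p under 0.05, and DESeq2 called 0 kinases and 4 genes (0.0244%). With 1 library left out, the effect ranged from 0.0264 to 0.100 for Dyrk1a and from -0.107 to -0.0547 for Clk4.

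The lines were compared in the same way. From DHX35-dTAG to GPATCH1-dTAG cells, over 4 libraries each and with treatment in the model, Clk2 was higher by 0.29 ± 0.07 (log2, SE), or 1.22-fold with a 95% confidence interval of 1.10 to 1.36. Clk4 was higher by 0.25 ± 0.07 (1.19-fold, 1.07 to 1.32) and Clk1 by 0.25 ± 0.09 (1.19-fold, 1.04 to 1.36), while Clk3 was higher by 0.13 ± 0.06, with an interval from -0.01 to 0.26. The 4 kinases outside the CLK family lay between -0.06 ± 0.08 (Srpk2) and 0.10 ± 0.09 (Prpf4b). None of the 8 passed the threshold: the adjusted p was 0.104 for Clk2, 0.141 for Clk4, 0.227 for Clk1 and 0.358 for Clk3 in edgeR's test, which called 129 of 16371 genes (0.788%), with 55 increases and 74 decreases. DESeq2 called no kinase and 227 genes (1.39%). With 1 library left out, the log2 difference ranged from 0.0277 to 0.180 for Prpf4b and from -0.127 to -0.0125 for Srpk2.

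Below that threshold, 3 of the 8 kinases, Clk1, Clk2 and Clk4, were higher with an unadjusted p under 0.05, as were 1055 genes (6.44%) of all tested. All 4 GPATCH1-dTAG libraries were above all 4 DHX35-dTAG libraries for 3 of the 8, Clk2, Clk3 and Clk4, against 5.63% of all genes, and below them for none, against 6% of all genes. The median over the 8 kinases was 0.11, and over all genes -0.01. In the marker lists, the gene with the lowest p also had an unadjusted p under 0.05 (edgeR's quasi-likelihood test). Gata4 (0.64 ± 0.23), the mesoderm marker Mixl1 (0.65 ± 0.24), Sox1 (0.25 ± 0.11) and the pluripotency marker Klf4 (0.23 ± 0.09) were higher. Thy1 was lower (-0.65 ± 0.22), and none of these was called. Klf4 went against most of its list: of the 6 pluripotency markers, 2 were above 0, with a median of -0.07 and a lowest value of -0.24. Gata4 had only 13 to 28 counts in a library, and Mixl1 7 to 23. The kinases were chosen with earlier results of these data known, and no test was made of the group as a whole.

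The difference had the same direction in both treatments for 6 of the 8 kinases, the 4 CLK kinases, Srpk1 and Dyrk1a. In DMSO alone, the log2 differences were 0.27 ± 0.10 (SE) for Clk2, 0.26 ± 0.13 for Clk1, 0.22 ± 0.12 for Prpf4b, 0.17 ± 0.09 for Clk4, 0.13 ± 0.09 for Dyrk1a, 0.12 ± 0.09 for Clk3, 0.07 ± 0.09 for Srpk1 and -0.13 ± 0.11 for Srpk2. In dTAG-13 alone, the log2 differences were 0.33 ± 0.10 for Clk4, 0.31 ± 0.10 for Clk2, 0.25 ± 0.13 for Clk1, 0.14 ± 0.09 for Clk3, 0.05 ± 0.09 for Dyrk1a, 0.04 ± 0.09 for Srpk1, 0.01 ± 0.11 for Srpk2 and -0.02 ± 0.12 for Prpf4b. Neither comparison of 2 against 2 libraries called any of them, and each called 15 genes in all. These comparisons within a treatment were added after the data had been seen.

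Which kinases were called between the lines depended on the library that stood apart and on the filter for low counts. Without DHX35-dTAG DMSO replicate 1, edgeR called Clk2 at 0.24 ± 0.06 (adjusted p = 0.0123) and Clk4 at 0.28 ± 0.06 (adjusted p = 0.0139), and 1013 genes in all (5.95%), against 129 with all libraries. With no filter on low counts, edgeR's quasi-likelihood test called Clk2 at 0.30 ± 0.09 (adjusted p = 0.0319) and Clk1 at 0.27 ± 0.08 (adjusted p = 0.0387), among 920 genes in all (2.82%). Markers of pluripotency were called between the lines in the same fits: Sox2 at -0.19 ± 0.05 and Esrrb at -0.16 ± 0.04 without replicate 1, and Klf4 at 0.25 ± 0.07 and Pou5f1 at -0.23 ± 0.07 with no filter (edgeR's quasi-likelihood test; with all libraries and the filter none of these was called). Whether the state of the cells bears on the kinase values was not tested. Over all alternatives, the adjusted p ranged from 0.0123 to 0.445 for Clk2, from 0.0139 to 0.435 for Clk4 and from 0.0387 to 0.682 for Clk1, and the log2 difference from 0.24 to 0.35, from 0.17 to 0.33 and from 0.19 to 0.32, respectively.

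**Figure D2:**
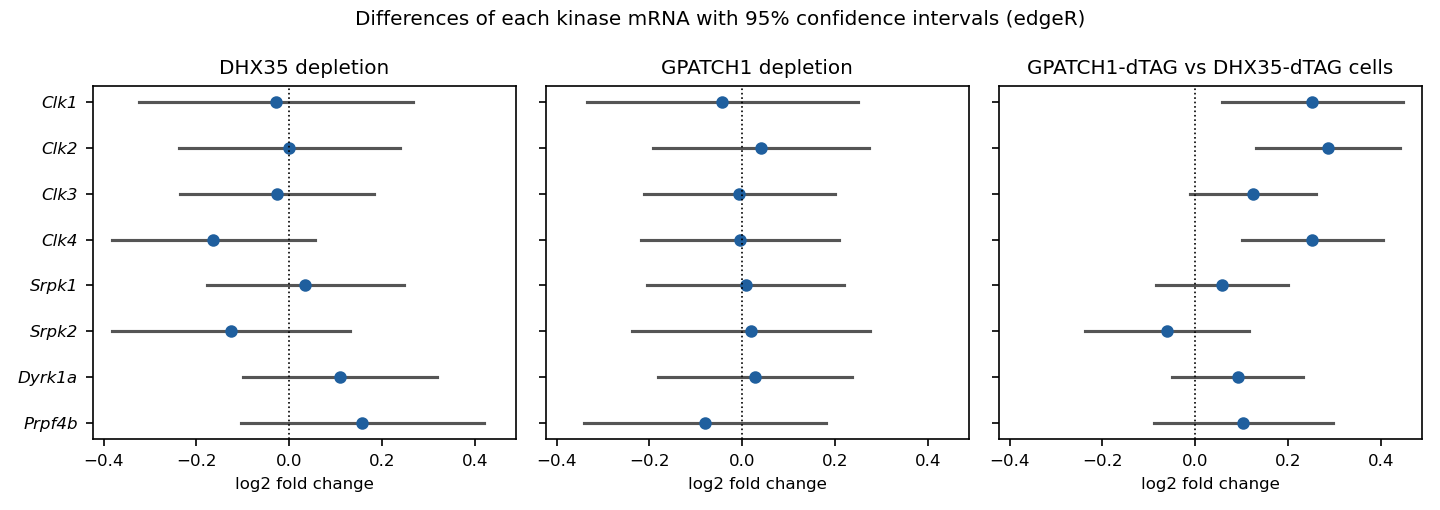
Log2 fold changes (horizontal axes) of the 8 kinase mRNAs from edgeR, with dTAG-13 compared with DMSO in each line and GPATCH1-dTAG cells compared with DHX35-dTAG cells; points are estimates and bars 95% confidence intervals. The intervals of both treatments include 0 for all 8 kinases, and those of the line difference lie above 0 for Clk1, Clk2 and Clk4, none of which passed an adjusted p of 0.05.

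The other genes of the pathway were taken from lists written by name. Of the 9 further kinases of the DYRK, HIPK and SRPK families, 7 had enough counts to be tested, and none was called in any of the 5 comparisons. Hipk2, a nuclear kinase of the homeodomain-interacting family, was at 23.4, 34.7, 39.7 and 37.8 CPM in the DHX35-dTAG libraries and at 24.8, 26.7, 24.2 and 23.6 CPM in the GPATCH1-dTAG libraries. It was higher in DHX35-dTAG cells except in DMSO replicate 1, where it was lower than in every other library. It had the lowest p of its list for DHX35 depletion (0.41 ± 0.16, adjusted p = 0.715), for the difference between the responses (-0.52 ± 0.24, adjusted p = 0.862) and between the lines (-0.44 ± 0.14, adjusted p = 0.197), all in edgeR's test. Without DHX35-dTAG DMSO replicate 1, its values were 0.16 ± 0.10 for DHX35 depletion and -0.26 ± 0.13 for the difference. Hipk3 had the lowest p for GPATCH1 depletion (-0.11 ± 0.10) and for dTAG-13 across both lines (-0.09 ± 0.07).

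Of 16 SR and SR-related proteins, all were tested and none was called in any of the 5 comparisons by edgeR. Their median log2 fold change was -0.08 after loss of DHX35 (all genes -0.01) but -0.01 without DHX35-dTAG DMSO replicate 1 (all genes 0.00), and with all libraries it was 0.00 after loss of GPATCH1 (all genes 0.00) and 0.10 between the lines (all genes -0.01). Srsf3, a small shuttling SR protein, was at 681 and 447 CPM with DMSO and 410 and 462 CPM with dTAG-13 in DHX35-dTAG cells, and at 444, 448, 487 and 509 CPM in the GPATCH1-dTAG libraries. Its value in DHX35-dTAG DMSO replicate 1 was far above all others. Srsf3 had the lowest p of the list for the difference between the responses (0.53 ± 0.23, adjusted p = 0.862 in edgeR's test), and without that library the difference was 0.20 ± 0.10. Srrm1, a splicing coactivator, had the lowest p for DHX35 depletion (0.19 ± 0.08, adjusted p = 0.715; 0.12 ± 0.07 without that library), Srsf7 for GPATCH1 depletion (0.17 ± 0.09, adjusted p = 1.00), Srsf6 for dTAG-13 across both lines (-0.12 ± 0.06, adjusted p = 0.963) and Srsf4 between the lines (0.18 ± 0.06, adjusted p = 0.213), all in edgeR's quasi-likelihood test.

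Of 9 genes for the nuclear import of SR proteins, the phosphatases that remove the phosphate and the kinases' cofactors, all were tested and none was called. Ppp1cc, a catalytic subunit of protein phosphatase 1, was at 279 CPM in DHX35-dTAG DMSO replicate 1 and at 208 to 226 CPM in the other 7 libraries. It had the lowest p for DHX35 depletion (-0.21 ± 0.11) and between the lines (-0.14 ± 0.08), which without that library were -0.05 ± 0.07 and -0.05 ± 0.05. The lowest p was that of Ppp1ca for GPATCH1 depletion (0.08 ± 0.08), Ppp1cb for the difference between the responses (0.26 ± 0.16), and Dcaf7, a scaffold that binds DYRK1A, for dTAG-13 across both lines (-0.07 ± 0.06; -0.03 ± 0.04 without that library). Ogt and Oga, which add and remove O-GlcNAc and whose transcripts carry detained introns as those of Clk1 and Clk4 do, were also not called in any comparison. Ogt was at 170 and 212 CPM with DMSO and 196 and 201 CPM with dTAG-13 in DHX35-dTAG cells, and at 231 and 229 CPM with DMSO and 187 and 205 CPM with dTAG-13 in GPATCH1-dTAG cells. Its treated GPATCH1-dTAG libraries were both below the controls, as for 20.3% of all genes tested. The log2 fold change was -0.23 ± 0.11 (edgeR, adjusted p = 1.00). Oga was at 325 CPM in DHX35-dTAG DMSO replicate 1 and at 251 to 278 CPM in the other 7 libraries, and after loss of DHX35 it differed by -0.18 ± 0.10 (edgeR's quasi-likelihood test, adjusted p = 0.715), or by -0.06 ± 0.07 without that library.

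Calls in these lists depended on the 2 DHX35-dTAG DMSO libraries and on the genes and libraries in the fit. Without replicate 1, edgeR's quasi-likelihood test called Hipk2 (-0.59 ± 0.07, adjusted p = 2.3e-05, range over the alternatives 2.3e-05 to 0.620) and the SR-related gene Tra2a (0.31 ± 0.05, adjusted p = 0.000819, range 0.000819 to 0.696) between the lines, where 5.95% of all genes were called, and no gene of these lists by treatment. Without replicate 2, where replicate 1 was the only control and 28.8% of all genes were called after loss of DHX35, it called 8 of the 16 SR genes, 2 of the 7 other kinases, 2 of the 9 genes of import, phosphatases and cofactors, and both Ogt and Oga. For the difference between the responses, where 20.9% of all genes were called, it called 8, 2, 1 and 2 genes of these lists, in this order. With no filter on low counts, it called Srsf9 and Srsf3 after loss of DHX35 (1.06% of all genes), Srsf3 for the difference between the responses (0.429%), and Hipk2 and Tra2a between the lines (2.82%). With only the 4 libraries compared, it called Ogt after loss of GPATCH1 (-0.24 ± 0.05, adjusted p = 0.0282, range 0.0282 to 1.00), as it did 0.803% of all genes.

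Genes with the pattern most like that of a kinase were sought by the root mean square difference of log2 CPM over the 8 libraries, each gene centred on its own mean, among 8977 genes with a mean of at least 10 CPM and a count in every library. Clk1 had the widest range of the 8 kinases, 0.47 on the log2 scale from its lowest to its highest library. The nearest genes to it were Tia1 (0.0435), Paxbp1 (0.0444) and Mob1b (0.0463), against a median of 0.199 over all genes compared. Tia1, an RNA-binding protein of stress granules that also acts in splicing, was at 46.6, 58.6, 47.9 and 53.1 CPM in the DHX35-dTAG libraries and at 58.3, 61.8, 54.8 and 60.6 CPM in the GPATCH1-dTAG libraries. Like Clk1, it was lowest in replicate 1 of both groups of DHX35-dTAG cells. For Clk4, Rab21 (0.0415) and Wdr35 (0.0427) were among the nearest genes, against a median of 0.186. Rab21, a small GTPase of early endosomes, was at 20.9, 19.9, 19.1 and 19.6 CPM in the DHX35-dTAG libraries and at 23.9, 24.6, 22.7 and 23.8 CPM in the GPATCH1-dTAG libraries. As with Clk4, its 2 lowest values were those of DHX35-dTAG cells with dTAG-13.

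What the kinase genes share in sequence was read from the GENCODE M21 annotation of GRCm38, the build of the authors' alignment (mm10). In this annotation, an intron may be kept as part of an exon of another transcript of its gene. Of the 12 introns of the reference transcript, which is the one with the longest coding sequence, 5 were kept in another transcript of Clk1 (chr1:58410189-58424066, minus strand), 4 of Clk4 (chr11:51261730-51281766, plus strand), 3 of Clk2 (chr3:89164795-89176921, plus strand) and 3 of Clk3 (chr9:57750624-57765860, minus strand). Srpk1 (chr17:28587648-28622709, minus strand) had 3 of 15 kept, Srpk2 (chr5:23503264-23684617, minus strand) 1 of 14, Dyrk1a (chr16:94570010-94695517, plus strand) 0 of 11 and Prpf4b (chr13:34875302-34906064, plus strand) 0 of 14. Over the reference transcripts of all protein-coding genes, 8732 of 188715 introns (4.63%) were kept in this sense. The share of exonic bases that only transcripts annotated with a retained intron hold was 63.8% for Clk1, 59.8% for Clk4, 58.4% for Clk3 and 54.8% for Clk2, and 50.1% for Srpk1, 40.1% for Srpk2, 23.4% for Dyrk1a and 4.02% for Prpf4b.

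In all 4 CLK genes, introns 3 and 4, on both sides of exon 4, were kept in an annotated transcript. Exon 4 was 91 bases long in Clk1 and Clk4, 88 in Clk2 and 97 in Clk3, in no case a multiple of 3. The 5′ splice sites of intron 4 are shown because they differ little between the 4 genes, which lie on 4 chromosomes. Each run has 12 bases of exon 4 followed by 12 bases of the intron, in the direction of transcription, and the capitals mark the last 3 bases of the exon and the first 6 of the intron. Intron 4 lies at chr1:58419734-58420120 in Clk1, chr3:89169703-89170048 in Clk2, chr9:57758351-57758626 in Clk3 and chr11:51273169-51273559 in Clk4, on the strands given above, within the coding part of the genes.
Clk1: taagtgcaaGATGTATAGaatatt
Clk4: taagagcaaGATGTATAGaatatt
Clk2: tacaagagcGATGTACAAgccaaa
Clk3: tccaagagcGATGTACAGccacct

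All 4 sites began with GATGTA from the third last base of the exon, and Clk1 and Clk4 shared all 9 capitals. On the strand of the gene, GATGTA stood at this place in 33 of the 8732 kept introns (0.378%), these 4 included, and GATGTATAG in 2 (0.0229%), those of Clk1 and Clk4. The 4 sites ended the exon with T, as 7.03% of the kept introns did, and had A as the fifth base of the intron, as 7.73% did, where 79.1% and 77.7% had G. A T at the end of the exon without G as the fifth intron base was found in 43 of the kept introns (0.492%). The letters counted were read from these same 4 sites, so the shares do not test the match. The match of letters is a description of the annotation and no measure of how the sites were used.

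The 5′ splice sites of intron 3 are shown for comparison, with the same capitals. Intron 3 lies at chr1:58420212-58421082 in Clk1, chr3:89168924-89169614 in Clk2, chr9:57758724-57760823 in Clk3 and chr11:51272023-51273077 in Clk4.
Clk1: cattcacacGGGGTATGAgtgcct
Clk4: cagtcgcatTCGGTATGAgtggtt
Clk2: cgctcatctTCAGTGAGTgccagc
Clk3: agtgcttccTCGGTGAGTggtggc

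At these sites all 4 genes had G as the fifth intron base, and none ended the exon with T.

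**Figure D3:**
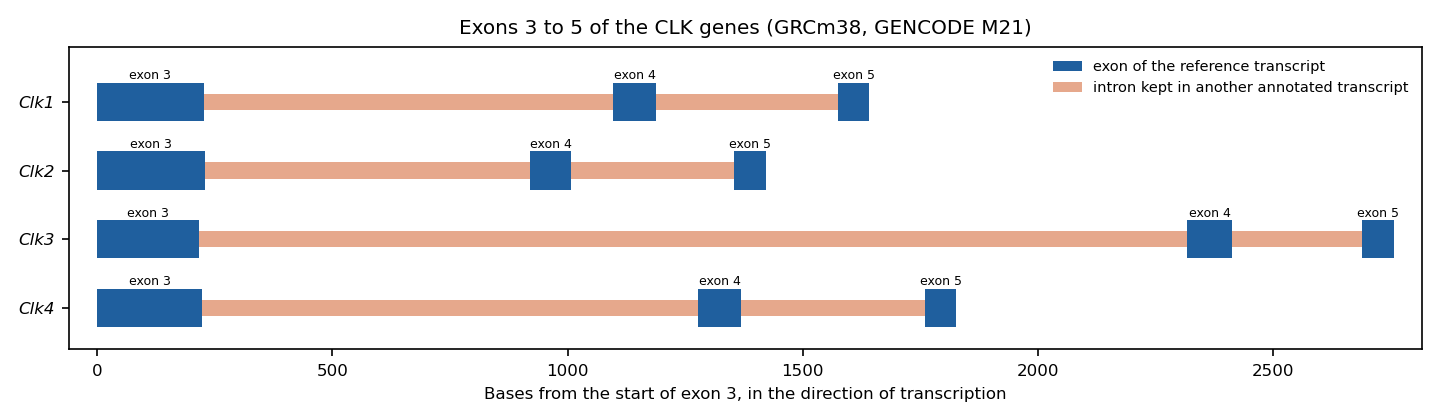
Exons 3 to 5 of the reference transcripts of the 4 CLK genes, drawn to scale in bases from the start of exon 3 (horizontal axis) in the direction of transcription; blue boxes are exons and pale boxes introns kept in another annotated transcript. Both introns beside exon 4 are kept in all 4 genes, and intron 3 of Clk3, with 2100 bases, is the longest of the 8 introns drawn.

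A count per gene holds no junctions, so the level of these introns in the 8 libraries was not measured. Where the authors' counting took transcripts with a retained intron as exonic, reads in these introns are part of the CPM of the CLK genes, and where it did not, they are not. The kinases share no stretch of 50 bases with each other in any of their annotated transcripts. Clk3 overlaps Edc3, and Srpk2 overlaps Kmt2e, on the opposite strand, with 15.2% and 6.99% of their exonic bases. Without a stated strand setting, the reads of each pair cannot be told apart there. Clk4 and Prpf4b overlap other annotated genes with 1.02% and 0.427% of their exonic bases. Of the 50-base windows of Srpk1, 2.86% also occur in other annotated genes, which makes a small part of its counts uncertain.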

How the data were processed

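Gene counts of 8 libraries were used as the authors deposited them. The submitters' notes name FastQC 0.11.9, Trim Galore 0.6.6, STAR 2.7.5c and DESeq2 1.26.0, with the builds mm10 and hg19; the counting program is not given in the sources used here, and the spike-in was not used here. The 8 kinases were taken by name from genes present in all 8 count tables; they and the other gene lists were chosen with earlier results of these data known.

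In R 4.3.3, edgeR 4.0.16 with limma 3.58.1 kept 16371 genes (filterByExpr), scaled libraries by TMM and applied the quasi-likelihood F-test to 5 contrasts: dTAG-13 against DMSO in each line, the difference of these responses, dTAG-13 across both lines, and the line difference. P-values were adjusted over all genes tested by the Benjamini-Hochberg method, with a threshold of 0.05. The common dispersion was 0.0125, a biological coefficient of variation of 11.2%, and confidence intervals are 95% intervals. The code was tested on simulated counts in which 200 of 16371 genes were changed by GPATCH1 depletion. It called 1 of the 200 at a log2 change of 0.5, 140 at 1 and 182 at 2. Other genes called there numbered 0, 17 and 11. Alternatives were DESeq2 1.42.0, its size factors in edgeR, a filter left out or replaced by 10 or more counts in each library, replicate number as a block, only the 4 libraries of a line, each library left out, the 2 genes with the highest counts removed, and, chosen after seeing the data, the line difference within each treatment. For lengths, the longest transcript was an alternative to the exon union. Exons and sequences came from GENCODE M21, read with Python 3.11.15 and pandas 2.3.3.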

Additional observations from a re-analysis of the deposited data

How the results depend on the processing

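With 2 libraries per group, 1 library could decide a call, and a change within the intervals given was beyond the precision of these data. Of 592 log2 fold changes of the kinases under the alternatives, 540 had the direction and side of the threshold of the values reported, 7 gained a call and 45 had the opposite sign. The cause was not tested. The deviations of replicate 1 from its group mean correlated between groups at 0.0372 to 0.230. These values do not settle whether samples of equal replicate number were paired. Clk1 was higher in replicate 2 than in replicate 1 in all 4 groups. With the replicate block, genes called for the difference between the responses went from 0 to 2, and the line difference had 151. No kinase was called with it. Between the lines, the block took Clk1 from 0.25 ± 0.09 (adjusted p = 0.227) to 0.26 ± 0.06 (adjusted p = 0.0828, edgeR's quasi-likelihood test).

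Genes called after loss of DHX35 were 1 with DESeq2, 345 with no filter and 1 with only the 4 libraries compared; after loss of GPATCH1, 21 with no filter and 127 with only the 4 libraries; for the difference between the responses, 9 with DESeq2 and 140 with no filter; for dTAG-13 across both lines, 4 with DESeq2 and 80 with no filter; between the lines, 227 with DESeq2, 920 with no filter (2 kinases), 15 in DMSO only and 15 in dTAG-13 only. With 1 library left out, kinases called ranged from 0 to 2 (DHX35 depletion), 0 to 1 (difference) and 0 to 2 (lines), and genes called from 0 to 4949, from 0 to 51 (GPATCH1 depletion), from 0 to 3592, from 0 to 8 (both lines) and from 27 to 1013.

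The log2 fold change changed sign for Clk2 after loss of DHX35 (-0.0085 with at least 10 counts in every library, -0.00074 without the 2 genes with the highest counts, -0.00066 with only the 4 libraries), after loss of GPATCH1 for Clk3 (0.0053) and Clk4 (0.0064) with no filter, and between the lines in dTAG-13 only for Srpk2 (0.011) and Prpf4b (-0.015). With 1 library left out it ranged, after loss of DHX35, from -0.176 to 0.147 (Clk1), -0.116 to 0.141 (Clk2), -0.102 to 0.0498 (Clk3), -0.0741 to 0.163 (Srpk1) and -0.275 to 0.0142 (Srpk2); after loss of GPATCH1, from -0.137 to 0.0465 (Clk1), -0.0341 to 0.0251 (Clk4), -0.0305 to 0.0453 (Srpk1), -0.0586 to 0.0927 (Srpk2) and -0.00399 to 0.0592 (Dyrk1a); for the difference, from -0.191 to 0.134 (Clk1), -0.101 to 0.157 (Clk2), -0.0600 to 0.0916 (Clk3), -0.156 to 0.0822 (Srpk1) and -0.185 to 0.00403 (Dyrk1a); and across both lines, from -0.0955 to 0.0315 (Clk1), -0.0203 to 0.0793 (Clk2), -0.0460 to 0.0136 (Clk3), -0.0248 to 0.0693 (Srpk1), -0.0989 to 0.0145 (Srpk2) and -0.0367 to 0.0786 (Prpf4b).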
